A study of Mus musculus with 4 samples.

Results

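The 9 transcripts Chil3, Ear1, Ear2, Plet1, Mrc1, Marco, Krt79, Slc7a2 and Wfdc17, a signature of mouse alveolar macrophages, were followed through single-cell RNA libraries of lung immune cells. They were taken by gene symbol, and all 9 were found among the 31053 genes of the deposited count matrices. No measured value entered that choice, although the list was drawn up by people who knew earlier results of these data. The measurements below are unique molecular identifiers (UMIs), each standing for 1 captured RNA molecule read from its 3′ end, counted per gene and cell.

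The libraries hold live CD45.2+ cells sorted from the lungs of C57BL/6J mice at 10 weeks of age. The 2 WT libraries come from mice with the genotype Lmna-flox/flox Vav1-cre-/- and the 2 knockout libraries, Lmna-KO, from mice with the genotype Lmna-flox/flox Vav1-cre+/-. All 4 libraries therefore carry the floxed Lmna alleles, and the Cre transgene is present in the knockout mice alone, so loss of Lmna and presence of Cre cannot be told apart. The Vav1 promoter drives Cre in the blood-forming lineage, from which lung immune cells derive, and Lmna encodes the nuclear lamina proteins lamin A and lamin C. The comparison asks how these transcripts differ between the genotypes, in alveolar macrophages and in the other cells of the same libraries.

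Alveolar macrophages live in the air spaces of the lung, settle there around birth under the influence of the cytokine GM-CSF and the nuclear receptor PPAR-gamma, and take up surfactant, dust and microbes. The signature spans their main tasks. Marco, a scavenger receptor, and Mrc1, the mannose receptor, bind particles and glycans at the cell surface. Chil3 (also called Ym1) is a secreted chitinase-like protein, Ear1 and Ear2 are small secreted ribonucleases of the eosinophil-associated family, and Wfdc17 is a small secreted protein with a WAP domain. Plet1 is a protein anchored at the cell surface, Krt79 is a keratin, and Slc7a2 is a transporter of cationic amino acids such as arginine.

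The 9 genes lie at separate places in the genome except for the Ear pair. In the GENCODE annotation of build GRCm38, Ear1 (ENSMUSG00000072601) lies at chr14:43818765-43875517 on the minus strand and Ear2 (ENSMUSG00000072596) at chr14:44102654-44103534 on the plus strand, both on chromosome 14. Marco (ENSMUSG00000026390) spans chr1:120474538-120505024 on the minus strand in 17 exons, Mrc1 (ENSMUSG00000026712) spans chr2:14229392-14332057 on the plus strand in 30 exons, and Wfdc17 (ENSMUSG00000069792) spans chr11:83703991-83706268 on the plus strand in 3 exons. The others are on chromosome 3 (Chil3), 9 (Plet1), 15 (Krt79) and 8 (Slc7a2), and all 9 are annotated as protein-coding. Plet1 overlaps Plet1os, Slc7a2 overlaps Gm26584 and Ear2 overlaps Gm49101, each on the opposite strand. Mrc1 overlaps Mir511 on its own strand. Ear1 overlaps Ear-ps12 and Ear-ps9 on its own strand and AC154806.1 and Ang-ps2 on the opposite strand.

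RefSeq's promoter table for GRCm38.p6 matched 8 of the 9 members. The 250 bases before the RefSeq start site are shown for Ear1 and Ear2, because the pair is close enough in sequence to bear on how its UMIs are read. They are shown too for Marco and Mrc1, surface receptors whose transcripts moved in opposite directions in the knockout macrophages. Capitals mark matches, on either strand, to the C/EBP motif TTGCNNAA in the Ear pair and to the PU.1 core motif GAGGAA in the receptors, both motifs of transcription factors that act in myeloid cells. The 4 stretches, printed 5′ to 3′ on the strand of the gene, are as follows.
Ear1, chr14:43819640-43819889, minus strand: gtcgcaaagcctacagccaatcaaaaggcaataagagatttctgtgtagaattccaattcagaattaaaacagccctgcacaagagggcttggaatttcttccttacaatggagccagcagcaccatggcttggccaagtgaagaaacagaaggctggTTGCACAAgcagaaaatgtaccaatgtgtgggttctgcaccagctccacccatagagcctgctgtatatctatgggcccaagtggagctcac
Ear2, chr14:44102404-44102653, plus strand: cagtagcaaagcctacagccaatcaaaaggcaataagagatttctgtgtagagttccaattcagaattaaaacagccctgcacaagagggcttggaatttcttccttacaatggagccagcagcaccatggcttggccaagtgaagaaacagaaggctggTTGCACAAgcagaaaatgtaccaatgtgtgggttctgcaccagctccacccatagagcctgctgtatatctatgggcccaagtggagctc
Marco, chr1:120505025-120505274, minus strand: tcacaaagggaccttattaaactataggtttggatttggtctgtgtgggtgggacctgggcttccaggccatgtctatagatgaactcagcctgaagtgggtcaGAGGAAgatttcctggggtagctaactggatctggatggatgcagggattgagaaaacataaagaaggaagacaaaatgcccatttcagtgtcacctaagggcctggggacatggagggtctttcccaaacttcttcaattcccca
Mrc1, chr2:14229164-14229413, plus strand: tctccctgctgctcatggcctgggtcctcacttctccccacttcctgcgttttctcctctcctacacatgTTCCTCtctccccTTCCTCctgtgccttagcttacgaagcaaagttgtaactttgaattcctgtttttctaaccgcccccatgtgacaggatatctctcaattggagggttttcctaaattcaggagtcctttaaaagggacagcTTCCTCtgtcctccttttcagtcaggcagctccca
The Ear1 and Ear2 stretches are identical at 246 of 252 aligned positions (97.6%), and both hold the same C/EBP match, 92 and 90 bases before the RefSeq start site. The Ear1 stretch lies inside the GENCODE span of Ear1 given above, which begins further upstream. The last bases of the Mrc1 stretch also lie inside its GENCODE span. Marco holds 1 PU.1 match and Mrc1 holds 3, on the opposite strand. These are letter matches in a window of 300 bases around the start site and not evidence of binding. Of all 32851 such windows in the table, 28.3% hold the PU.1 letters and 10.8% the C/EBP letters, against 3 of 8 members for each (Marco, Mrc1 and Wfdc17, and Ear1, Ear2 and Plet1). The nuclear receptor half-site AGGTCA, in 16.3% of all windows, and the AP-1 motif TGANTCA, in 7.81%, were each found in Plet1 alone.

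Sequence sharing limits how far the Ear pair can be told apart. The longest coding transcripts of Ear1 and Ear2 are identical at 691 of 719 aligned positions (96.1%). Of the 251 windows of 50 bases in the last 300 bases of each transcript, where the reads of this kit fall, 60.2% for Ear1 and 38.3% for Ear2 also occur in another annotated gene (each other, Ear6, Ear10 or the pseudogenes Ear-ps2 and Ear-ps9). No such window was shared for Chil3, Mrc1, Marco, Krt79 or Wfdc17, and 3.19% and 0.797% were for Plet1 and Slc7a2. The separate values of Ear1 and Ear2 below carry that uncertainty.

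The 4 matrices held 16528 cell barcodes and 97109691 UMIs, from 21780914 to 27045250 UMIs a library. After filtering, 14720 cells were analysed, 3817 and 3760 in WT 1 and WT 2 and 3655 and 3488 in Lmna-KO 1 and Lmna-KO 2, with median depths of 4052 to 4847 UMIs a cell. Of all barcodes, 27 occurred in more than 1 library. WT 2 stood apart in holding 442 T cell precursor-like cells, against 0, 1 and 10 in the others, and these were left out of the lymphoid pool used below. Lmna itself, the check of the labels, stood at 372 and 334 normalized CPM (UMIs scaled to a common total) in the WT alveolar macrophage-like cells and at 58.9 and 79.3 in the knockout ones, a log2 change of -2.36 ± 0.17 (SE, n = 2 and 2 libraries; adjusted p = 1.6e-09 by edgeR's quasi-likelihood test).

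Cells were clustered without the 9 members, and the alveolar macrophage-like class was named from 12 other markers, among them Siglecf, Car4, Fabp1, Pparg, Atp6v0d2 and Itgax. It held 548 cells, 228 in WT 1, 234 in WT 2, 52 in Lmna-KO 1 and 34 in Lmna-KO 2, and its cells were deep, with library medians between 13413 and 16907.5 UMIs. All 12 naming markers were detected, with summed levels of 6991 and 7245 CPM in WT, where CPM is a gene's UMIs scaled by all UMIs of the class in that library, and 6889 and 6212 in the knockout. Summed markers of other cells that a sort could carry along were lower. The highest sums were those of the 7 conventional dendritic cell 1 markers, at 811 to 826 CPM in the 4 libraries. The 7 regulatory T cell markers summed to 534 to 699, with Foxp3 and Il2ra at 0 in every library. The 7 plasma cell markers summed to 359 to 466. The 8 neutrophil markers summed to 134 to 158 CPM in the 4 libraries. The 9 B cell markers summed to 297, 87.2, 100.8 and 245. Of the 10 interstitial macrophage markers, Folr2 was at 0 in every library and the sum ran from 111 to 234. The 8 classical monocyte markers summed to 671 and 738 in WT and to 205 and 354 in the knockout, so that list moved with genotype; its part in the results below was not tested.

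Among 10 classes with at least 25 cells in every library, 8 of the 9 transcripts were highest in the alveolar macrophage-like cells. Ear1 averaged 531 CPM there over the 4 libraries (range 445 to 654) and 1.13 in the next class. Krt79 averaged 439 (242 to 557) against 1.44 in the next class, and Slc7a2 496 (430 to 561) against 39.4. Plet1 averaged 1430 (1347 to 1481) against 71.3 in the next class. In the WT libraries the class held 97.6% to 99.3% of all UMIs of Ear1, Krt79, Slc7a2 and Plet1. In Lmna-KO 1 and Lmna-KO 2 it held 98.3% and 97.5% for Ear1 and 98.7% and 92.9% for Krt79, but 78.4% and 69.0% for Slc7a2 and 85.5% and 80.7% for Plet1. Marco averaged 815 CPM (610 to 1114) and Mrc1 932 (709 to 1158), with 46.0 and 198 in the cluster that came next. That next cluster held 56, 45, 61 and 73 cells. Before 90 plasmacytoid dendritic cell-like cells were split off, its 10 leading genes were Retnla, C1qa, C1qb, C1qc, Siglech, Cd209a, Ccl7, Fcna, Cd209d and Mmp12. By mean log2 enrichment of the marker lists it scored 3.26 for interstitial macrophage, the name it was given. The second score, 2.44, was for conventional dendritic cell 1. Only some of its cells had C1q UMIs, so it is called here the mixed Retnla and C1qa cluster.

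**Figure D1:**
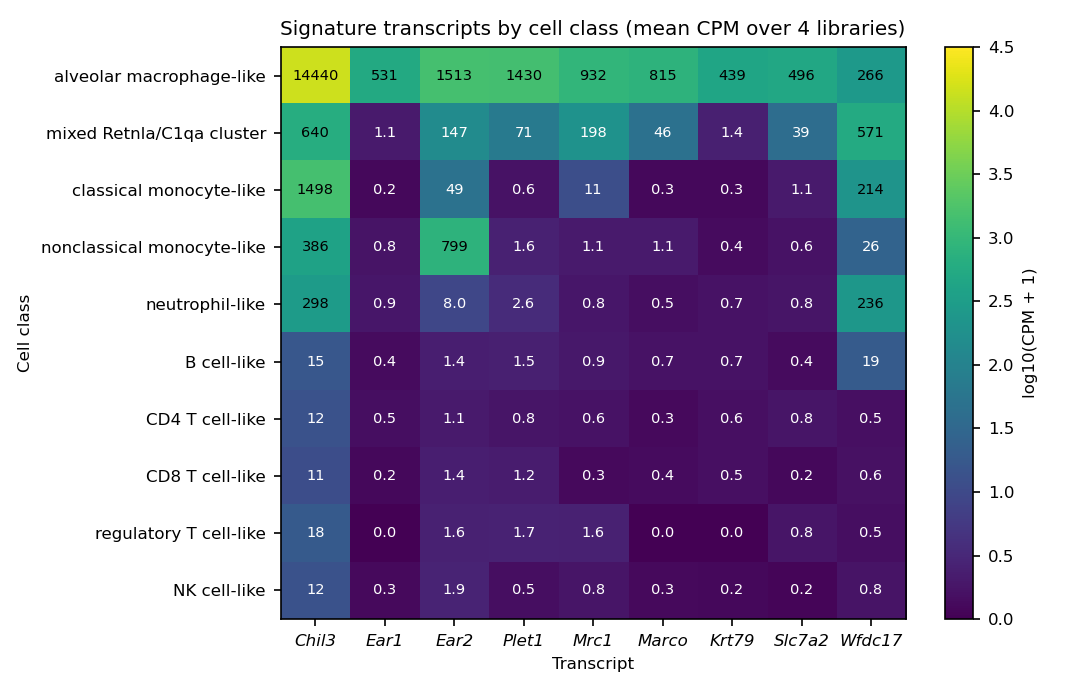
Mean CPM over the 4 libraries for each transcript (columns) in each of 10 cell classes (rows), with colour on a log10 scale. Chil3 fell from 14440 in alveolar macrophage-like cells to between 10.7 and 18.1 in the lymphoid rows, Ear2 had a second high value of 799 in nonclassical monocyte-like cells, and Wfdc17 was highest, at 571, in the mixed cluster.

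Several of the transcripts were also present in other myeloid cells. Chil3 averaged 14440 CPM in the alveolar macrophage-like cells (12950 to 15400) and 1498 in classical monocyte-like cells, whose libraries ranged from 792 to 2346 with the genotypes overlapping. In neutrophil-like cells Chil3 stood at 484 and 289 CPM in WT and at 11.2 and 407 in the knockout, but there the 3 cells richest in Chil3 held 75.8%, 84.0%, 25% and 86.5% of its UMIs, so those levels rest on a few cells. In nonclassical monocyte-like cells Ear2 stood at 804, 832, 814 and 745 CPM in the 4 libraries, a narrower range than its 1129 to 1918 in macrophages, and 85.3% to 88.5% of those cells had an Ear2 UMI. Ear1, for all its likeness in sequence, was at 0 to 1.98 CPM in the same cells. Wfdc17 was the exception to the signature. In WT it averaged 539 CPM in the mixed cluster, 293 in neutrophil-like, 226 in classical monocyte-like and 76.9 in alveolar macrophage-like cells. In the knockout the macrophages averaged 456, second to the mixed cluster at 603, and over the 4 libraries the neutrophil-like (125 to 461) and classical monocyte-like (183 to 267) ranges overlap. In the WT libraries the alveolar macrophage-like cells held 22.0% and 10.8% of all Wfdc17 UMIs.

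Within alveolar macrophage-like cells, the receptors moved apart between the genotypes. Of the 9 members, all of which passed the filter on low counts, 1 rose and 2 fell past an adjusted p of 0.05, where 3.25% of the 9009 tested genes rose and 2.66% fell. Marco stood at 610 CPM in WT 1 and 627 in WT 2, and at 1114 in Lmna-KO 1 and 910 in Lmna-KO 2. Both knockout libraries were above both WT libraries. The log2 change was 0.77 ± 0.13 (SE, n = 2 and 2 libraries), a 1.71-fold rise (adjusted p = 4.9e-04, edgeR). Mrc1 stood at 1158 and 1116 CPM in WT and at 744 and 709 in the knockout, again without overlap. It fell by 0.58 ± 0.12 on the log2 scale (adjusted p = 0.0051, edgeR). A lack of overlap was common. By normalized CPM, 24.7% of the 9009 tested genes had both knockout libraries above both WT libraries, and 25.9% had both below. With cells limited to at most 5% mitochondrial UMIs and at least 500 genes, which left 80, 99, 27 and 17 cells, the Marco change was 0.43 (adjusted p = 0.30), and without WT 1 the adjusted p of Mrc1 was 0.0502.

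**Figure D2:**
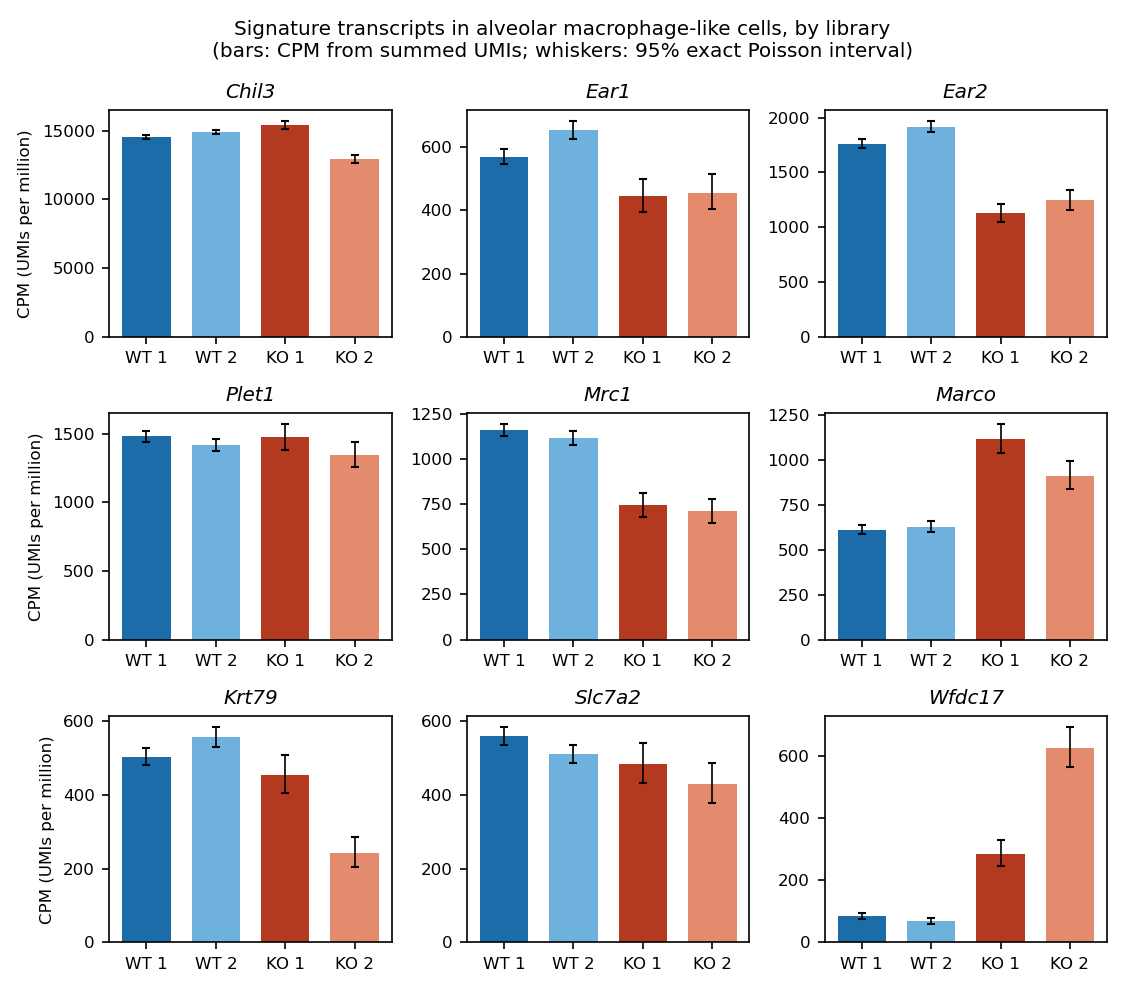
CPM of each transcript in alveolar macrophage-like cells, 1 bar per library with its 95% exact Poisson interval, on linear axes that start at 0. Marco stands at 910 and 1114 in the knockout bars against 610 and 627 in WT, and Mrc1 and Ear2 are lower in both knockout bars.

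Ear2, the second transcript that fell, stood at 1762 and 1918 CPM in WT and at 1129 and 1244 in the knockout. Its log2 change was -0.57 ± 0.12 (SE, n = 2 and 2 libraries; adjusted p = 0.0064, edgeR), and the call was lost without WT 2 (adjusted p = 0.094) and with the tighter cell limits (adjusted p = 0.099). Its relative Ear1 stood at 570 and 654 in WT and at 445 and 457 in the knockout. Both knockout values were lower, as for 25.9% of all tested genes. The Ear1 log2 change of -0.38 did not pass (adjusted p = 0.097, edgeR). The call was made with scaling by library totals only (-0.44, adjusted p = 0.041, edgeR) and with every gene that had a count (-0.43, adjusted p = 0.037, edgeR).

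Wfdc17 had the widest separation and the widest error. It stood at 85.9 and 67.9 CPM in WT and at 286 and 626 in the knockout, with 326, 208, 190 and 373 UMIs behind those values. Both knockout libraries were above both WT libraries, and they were themselves far apart. The log2 change was 2.62 ± 0.55 (SE, n = 2 and 2 libraries), with an adjusted p of 0.189 by edgeR, of 1.97e-04 by DESeq2, and of 0.0055 by edgeR with every gene that had a count, so the call rests on the tool and the filter. It was also made, with adjusted p values of 9.5e-81 and 1.4e-26 by edgeR, once Lmna-KO 1 or Lmna-KO 2 was left out, settings in which the lone knockout library is assumed to vary as the WT libraries do. In Lmna-KO 2 the 3 cells richest in Wfdc17 held 44.0% of its UMIs, against 18.3% to 32.1% in the other libraries. Mmp12, a leading gene of the mixed cluster where Wfdc17 was highest, stood at 12.6 and 3.25 normalized CPM in the WT macrophages and at 305 and 710 in the knockout ones (adjusted p = 0.159, edgeR), and its part in the Wfdc17 values was not tested.

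The remaining members did not pass the test. Chil3 stood at 14540 and 14880 CPM in WT and at 15400 and 12950 in the knockout, overlapping, with a log2 change of 0.01 ± 0.12 (adjusted p = 0.985, edgeR). Plet1 stood at 1481 and 1416 in WT and at 1475 and 1347 in the knockout, with a log2 change of 0.03 ± 0.12 (adjusted p = 0.948, edgeR). The signs of these near-zero changes turned under several settings. Slc7a2 stood at 561 and 511 in WT and at 484 and 430 in the knockout, a log2 change of -0.16 (adjusted p = 0.546, edgeR). Krt79 split the knockout libraries, with 503 and 557 in WT, 454 in Lmna-KO 1 and 242 in Lmna-KO 2 (log2 change -0.54, adjusted p = 0.492, edgeR). Without Lmna-KO 1 its log2 change was -1.08 (adjusted p = 8.5e-08, edgeR), and without Lmna-KO 2 it was -0.15 (adjusted p = 0.657), so 1 library decides the value. With all 4 libraries and every gene that had a count, the test was passed (-0.58, adjusted p = 0.0047, edgeR).

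The 4 transcripts with the largest fitted log2 changes were then compared cell by cell. Each alveolar macrophage-like cell was thinned to 6401 UMIs, which left out 55 shallower cells and kept 213, 207, 40 and 33. Marco was uneven in every library: 34.7% and 36.2% of WT cells had no Marco UMI at that depth, against 22.5% and 12.1% of knockout cells, and the median was 2 UMIs in both WT libraries and 5.5 and 4 in the knockout. For Wfdc17, 71.4% and 77.8% of WT cells had none, against 42.5% and 21.2% of knockout cells. Mrc1 was even, with a median of 7 UMIs in both WT libraries and 5 and 4 in the knockout, and 0.483% to 7.5% of cells with none. The Ear2 median was 11 in both WT libraries and 6 and 8 in the knockout. Without thinning, 72.4% and 67.1% of WT cells and 84.6% and 88.2% of knockout cells had a Marco UMI. The 3 cells richest in Marco held 10.4% and 15.04% of its UMIs in WT and 20.2% and 30.8% in the knockout, whose cells were fewer. For such shares 2 libraries against 2 allow no exact permutation p below 0.333, and that was the two-sided p for Marco and for Wfdc17.

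**Figure D3:**
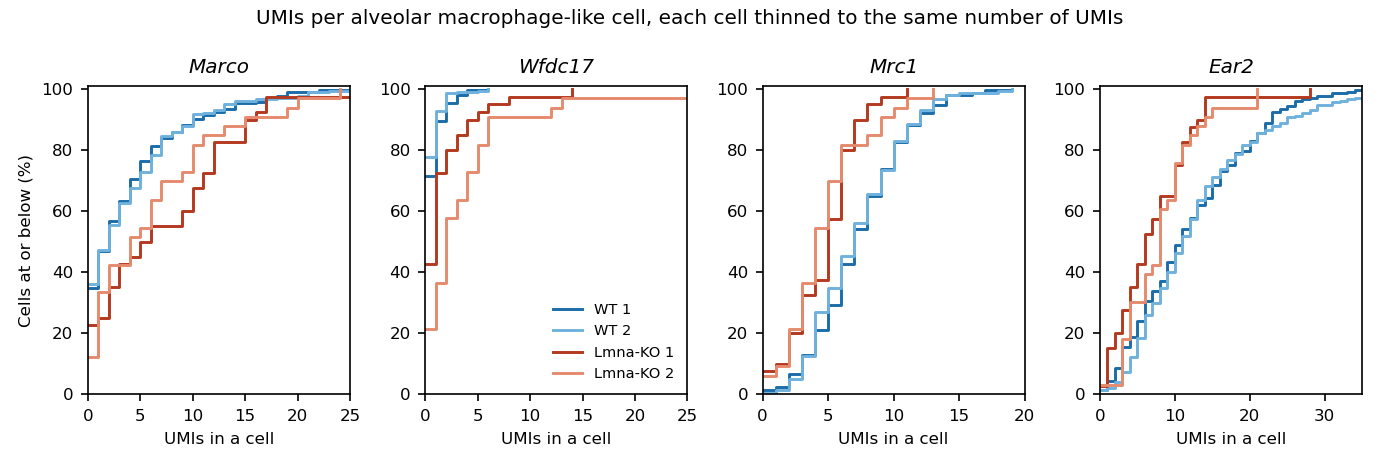
Share of alveolar macrophage-like cells (y axis, percent) with at most a given number of UMIs (x axis) of Marco, Wfdc17, Mrc1 and Ear2, 1 line per library, each cell thinned to 6401 UMIs. The knockout lines lie to the right of the WT lines for Wfdc17 and, over most of the range, for Marco, and to the left for Mrc1 and Ear2, and at 0 UMIs the Wfdc17 lines start at 71.4% and 77.8% in WT and at 42.5% and 21.2% in the knockout.

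Between members, levels in the same cell were mostly unrelated. Over the thinned cells of a library, Spearman's rho of Ear1 with Ear2 was 0.55, 0.59, 0.42 and 0.54 in WT 1, WT 2, Lmna-KO 1 and Lmna-KO 2, the highest of the 36 pairs in each library; the pair shares sequence, as above. Plet1 with Marco gave 0.12, 0.21, 0.34 and 0.47. Ear2 with Wfdc17 gave -0.18, -0.26, -0.65 and -0.10. Mrc1 with Ear2 gave 0.20 to 0.24. Cells of a library share its preparation, and the counts are low, so these are descriptions.

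Lists of related genes in the same macrophages moved in both directions, where 3.25% of the 9009 tested genes rose and 2.66% fell. Of 35 genes of alveolar macrophage identity, 34 were tested, 4 rose and 4 fell, with a median log2 change of -0.00 where all tested genes had 0.00. Ccl6, a chemokine, rose by 0.94 ± 0.12 on the log2 scale (SE, n = 2 and 2 libraries; adjusted p = 3.0e-05, edgeR). Cidec, a lipid droplet protein, Fabp1, a fatty acid binding protein, and Mertk, a receptor for dying cells, fell by 1.20, 0.79 and 0.73 (adjusted p at most 0.0034, edgeR). The 12 markers that named the class are in that list, which holds none of the 9 members. Of 20 scavenger and lectin receptors, 14 were tested, 4 rose and 2 fell, with a median of -0.03. The rises included Cxcl16, a scavenger receptor and chemokine, at 2.09 ± 0.31, Lgals3, a galactose-binding lectin, at 0.62, and Clec4d, a C-type lectin, at 0.88, while Cd36, a fatty acid and lipoprotein receptor, fell by 0.68 (adjusted p at most 0.030, edgeR). Cxcl16 was low, at 10.03 and 10.7 normalized CPM in WT and 34.1 and 55.1 in the knockout.

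Genes usually named beside Chil3 and Mrc1 as markers of alternative activation gave 1 rise and 1 fall among 9 tested of 18, with a median of -0.10. The shares over all tested genes were 3.25% and 2.66%, as above. Ccl17, a chemokine, rose by 2.23 ± 0.30, and Egr2, a transcription factor, fell by 0.74 (adjusted p = 3.3e-05 and 0.0051, edgeR). Ccl17 was low, at 12.3 and 8.44 normalized CPM in WT and 55.8 and 43.1 in the knockout. Ccl17 and Cxcl16 were also leading genes of a small cluster named mature migratory dendritic cell. That cluster held 5 and 4 cells in WT and 19 and 19 in the knockout, and its part in these values was not tested. Around Slc7a2, 12 of 16 genes of cationic amino acid transport and arginine use were tested, with a median of -0.03. Only Odc1, which makes polyamines from ornithine, passed, rising by 0.86 ± 0.19 (adjusted p = 0.0070, edgeR). Of 35 relatives of the signature genes 13 were tested, with a median of -0.11. Wfdc21, a WAP protein, and Rnaset2a, a ribonuclease of another family, rose by 0.56 and 0.69, and Rnase4, of the same superfamily as the Ear genes, fell by 1.22 (adjusted p = 0.011, 0.045 and 0.0088, edgeR).

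Over library and class sums, the nearest genes of 8 members by Pearson's r of log2(CPM + 1) were as follows, across 40 sums of 10 classes and among genes at 20 or more CPM in the WT macrophages. Ear1 and Krt79 shared Fabp1 (r of 0.983 and 0.976) and Vstm2a (0.979 and 0.977), followed by Sema3e for Ear1 (0.977), while Krt79 was closest to another keratin gene, Krt19 (0.980). Plet1 was closest to Snx24, Slc9a4 and Mertk (0.965 to 0.969), and Slc7a2 to AU022793, F7 and Snx24 (0.957 to 0.970). Mrc1 was closest to Cttnbp2nl, Rab3il1 and Sh3pxd2b (0.963 to 0.967). Ear2 was closest to Itgb5, Acp2 and Cdc42bpb (0.946 to 0.955), Chil3 to Sort1, Atp6v1b2 and Atp6v1a (0.902 to 0.907), and Wfdc17 to Cfp, Pira2 and Csf2rb (0.929 to 0.958). The sums of a library share its depth and the classes are few, so an r near 1 says little more than that both genes are high in the same class.

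Summed over all analysed cells of a library, 6 of the 9 members fell, where 0.353% of the 13880 tested genes fell and 0.0648% rose. Here fewer cells of a type and less RNA per cell cannot be told apart. Ear1 stood at 91.0 and 81.9 normalized CPM in WT and at 15.1 and 14.0 in the knockout, a log2 change of -2.57 ± 0.11 (SE, n = 2 and 2 libraries; adjusted p = 0.012, edgeR). Mrc1, Slc7a2, Plet1, Chil3 and Ear2 fell by 2.22, 1.97, 1.96, 1.5 and 1.29 (adjusted p of 0.033 to 0.041, edgeR). Krt79 at -2.70 (adjusted p = 0.104) and Marco at -1.47 (adjusted p = 0.056) did not pass, nor did Wfdc17 at 0.40 (adjusted p = 0.432). Without Lmna-KO 1 the count was 1 member, Krt79, and without Lmna-KO 2 it was 4, and DESeq2 called 8. Beside these values stand the cell numbers: the alveolar macrophage-like cells were 228 and 234 in WT and 52 and 34 in the knockout, and they held 92.6% and 86.9% of all UMIs of the 9 members in WT and 57.4% and 49.3% in the knockout. Of the Ear2 UMIs of a library, 75.9% and 73.2% lay in alveolar macrophage-like cells in WT and 24.5% and 28.5% in the knockout.

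**Figure D4:**
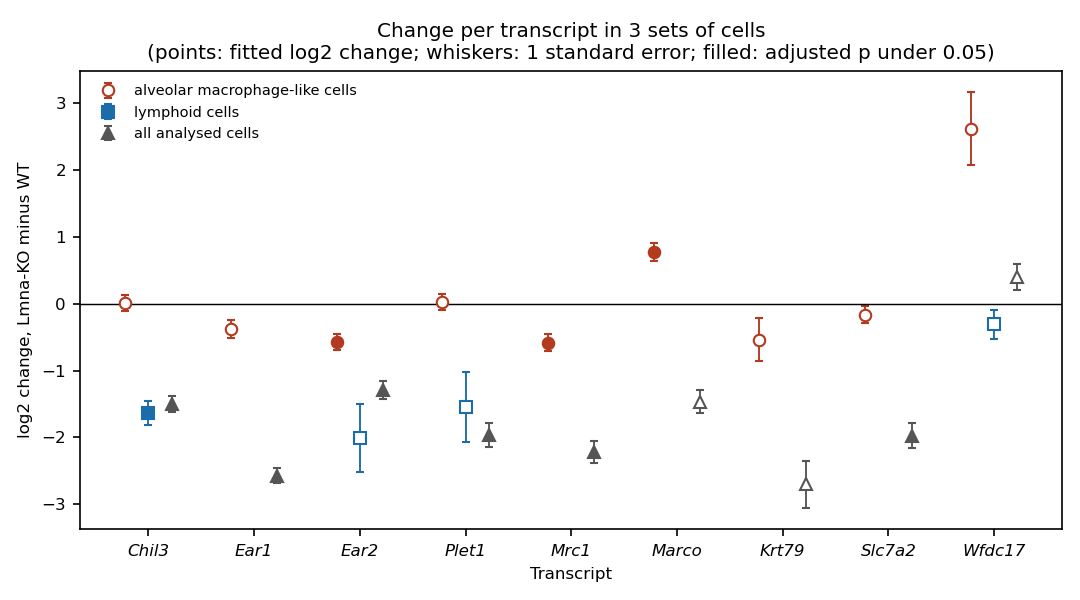
Fitted log2 change (Lmna-KO minus WT, y axis) with 1 standard error for each transcript, in alveolar macrophage-like cells (circles), lymphoid cells (squares, where tested) and all analysed cells (triangles). Filled symbols passed an adjusted p of 0.05. Chil3 is at 0.01 in the macrophages and at -1.64 and -1.5 in the other sets, and Marco is above 0 in the macrophages and below 0 in all analysed cells.

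The lymphoid cells of the same libraries carried the transcripts at a trace level. The pool of B, CD4 T, CD8 T, regulatory T, gamma-delta T and NK cell-like cells held 8396 cells, 2335, 1737, 2214 and 2110 in WT 1, WT 2, Lmna-KO 1 and Lmna-KO 2. In droplet data, RNA released from broken cells is captured along with each cell, so a trace of a gene in cells that do not use it is a known background. Chil3 gave 254 and 148 UMIs in the WT pools and 64 and 67 in the knockout pools, or 22.1, 17.8, 6.73 and 6.71 CPM. Both knockout values were below both WT values. By normalized CPM, that was so for 19.3% of the 11282 tested genes, while 20.7% had both above. Chil3 fell by 1.64 ± 0.18 on the log2 scale (SE, n = 2 and 2 libraries; adjusted p = 2.3e-05, edgeR), a 3.11-fold drop. It was 1 of 4 members that passed the filter on low counts, where 0.576% of the 11282 tested genes fell and 0.248% rose. With the T cell precursor-like cells added, 442 of 453 of them in WT 2, the log2 change was -1.49 and the call was lost (adjusted p = 0.867, edgeR), and it was lost too with the tighter cell limits (-1.29, adjusted p = 0.133), which left 375, 267, 305 and 489 cells.

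Of the other members in the pool, Ear2 gave 27 and 17 UMIs in WT and 3 and 8 in the knockout, with a log2 change of -2.01 that did not pass (adjusted p = 0.065, edgeR), though it did without WT 2 (adjusted p = 0.034), without Lmna-KO 2 (0.035), with doublets kept (0.0089) and with every gene that had a count (0.012). Plet1 gave 24, 11, 7 and 5 UMIs (log2 change -1.54, adjusted p = 0.245, edgeR). Ear2 and Plet1 passed the filter on low counts through the WT libraries alone, where they were higher. Wfdc17 gave 86, 68, 56 and 72 (log2 change -0.31, adjusted p = 0.693, edgeR). Mrc1 gave 14, 7, 3 and 4 UMIs, Krt79 12, 7, 2 and 0, Ear1 9, 2, 3 and 0, Marco 8, 5, 3 and 2, and Slc7a2 7, 3, 2 and 5, all too few to be tested. All 9 together gave 189 and 154 UMIs per 1000 lymphoid cells in WT and 64.6 and 77.3 in the knockout. Per 1000 member UMIs in the macrophages of the same library, the order was the reverse, at 5.46 and 4.02 in WT and 9.99 and 14.5 in the knockout. That scale counts macrophage UMIs only, which were 92.6% and 86.9% of a library's member UMIs in WT and 57.4% and 49.3% in the knockout. Wfdc17 made up 19.5% and 25.4% of the lymphoid member UMIs in WT and 39.2% and 44.2% in the knockout. Of all Chil3 UMIs of a library, lymphoid cells held 0.439% and 0.289% in WT and 0.384% and 0.445% in the knockout, which overlap.

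Chil3 was at a like level in each lymphoid class. In B cell-like cells it stood at 24.6 and 22.5 CPM in WT and at 7.66 and 6.70 in the knockout, a log2 change of -1.76 ± 0.23 (SE, n = 2 and 2 libraries; adjusted p = 0.0015, edgeR), where 0.388% of the 9539 tested genes fell and 0.0314% rose. The log2 changes were -1.65 in CD4 T, -1.55 in CD8 T and -1.90 in NK cell-like cells (adjusted p of 0.015, 0.018 and 0.020, edgeR), where 0.411%, 0.461% and 0.651% of the tested genes fell and 0.0229%, 0.0461% and 0.135% rose. All 4 calls were lost without WT 1, with log2 changes of -1.19 to -1.71, and those of CD4 T and CD8 T cell-like cells without WT 2 (adjusted p = 0.093 and 0.119); in the CD8 T and NK cell-like cells they were lost without Lmna-KO 1 as well (0.259 and 0.062). In NK cell-like cells Chil3 passed the filter on low counts through the WT libraries alone, with 42 and 12 UMIs in WT and 5 and 8 in the knockout. Regulatory T cell-like cells had 8, 5, 8 and 5 Chil3 UMIs, and no member passed the filter on low counts there (0.0187% of the tested genes rose and 0.337% fell). Wfdc17 differed between lymphoid classes, at 16.2 to 21.1 CPM in B cell-like cells of the 4 libraries and at 0 to 1.25 in CD4 T, CD8 T and NK cell-like cells, so its trace there did not have the even spread of Chil3.

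**Figure D5:**
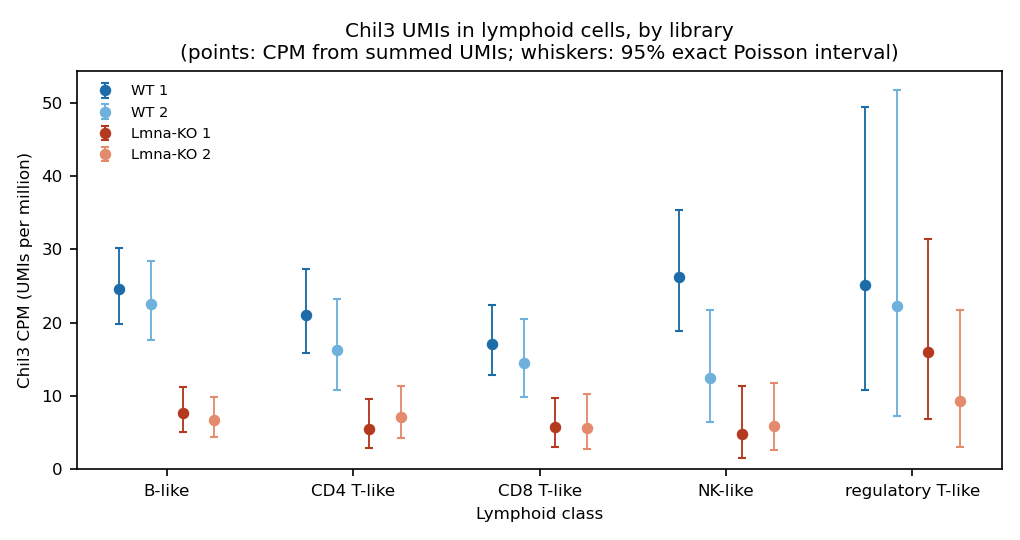
Chil3 CPM (y axis, from 0) in 5 lymphoid classes (x axis), 1 point per library with its 95% exact Poisson interval. In the B, CD4 T, CD8 T and NK cell-like classes both knockout points lie below both WT points, at 4.85 to 7.66 against 12.5 to 26.2, and the intervals of the regulatory T cell-like class overlap.

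The share of lymphoid cells with a UMI was compared at equal depth. With each cell thinned to 3055 UMIs, which left out 839 shallower cells (160, 114, 397 and 168 in the 4 libraries), 6.30% and 5.24% of WT cells and 1.98% and 2.16% of knockout cells had a Chil3 UMI. The 95% exact Clopper-Pearson intervals, which cover counting error only, were 5.31% to 7.40% and 4.20% to 6.44% in WT and 1.39% to 2.73% and 1.56% to 2.91% in the knockout. The median depth of these cells was 3915.5 to 4606 UMIs before thinning. A UMI of any of the 9 members was present in 10.5% and 8.81% of WT and 4.07% and 5.25% of knockout cells (exact two-sided permutation p = 0.333, the smallest that 2 against 2 allows). Thinned to 6110 UMIs, with 474, 296, 235 and 340 cells left, the Chil3 shares were 6.54% and 8.45% in WT and 5.96% and 3.82% in the knockout, a smaller gap. Unthinned, the shares for Chil3 were 9.59%, 8.0%, 2.80% and 3.03%, while every alveolar macrophage-like cell had a Chil3 UMI. Krt79 and Ear1 were at 0 of 1942 thinned cells in Lmna-KO 2, which allows a share of up to 0.154% (3 counts of the total).

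Other lists were summed over the same lymphoid pools. The 7 neutrophil transcripts in the list for free RNA summed to 47.9 and 79.5 CPM of the lymphoid pools in WT and to 56.5 and 87.9 in the knockout. The 7 epithelial transcripts summed to 81.3 and 79.8 in WT and to 87.6 and 69.2 in the knockout. The 12 macrophage markers that named the class, some of which lymphoid cells may also use, summed to 76.0 and 58.02 in WT and to 57.2 and 61.6 in the knockout. These 3 lists overlapped between the genotypes. The 9 members summed to 38.3 and 32.2 in WT and to 15.03 and 16.3 in the knockout. None of the 4 neutrophil and 5 epithelial transcripts tested in the lymphoid pool passed, with median log2 changes of 0.49 and 0.60. The most abundant of them, Scgb1a1, a secreted protein of airway club cells, went the other way and without overlap, at 54.2 and 71.6 normalized CPM in WT and 46.2 and 33.6 in the knockout (log2 change -0.65, adjusted p = 0.261, edgeR).

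The change in alveolar macrophage-like cells differed from that in lymphoid cells for 2 members, tested in 1 model with the library as a block. For Chil3 the macrophage change exceeded the lymphoid change by 1.55 ± 0.13 on the log2 scale (SE, n = 2 and 2 libraries; adjusted p = 1.4e-07, edgeR), and for Wfdc17 by 2.81 ± 0.26 (adjusted p = 1.9e-06, edgeR). Of the 10239 tested genes, 0.537% had a higher change in the macrophages and 0.811% a lower one. Plet1 at 1.47 (adjusted p = 0.056), Ear2 at 1.35 (0.095), Marco at 2.03 (0.121) and Krt79 at 2.43 (0.118) did not pass, though Plet1 did without WT 2 (0.038). Ear1 at 1.33 (0.584), Mrc1 at 0.89 (0.558) and Slc7a2 at 0.26 (0.928) did not pass either. The macrophage level of Chil3 was 659 and 837 times the lymphoid level in WT 1 and WT 2, and 2289 and 1931 times in the knockout libraries. In WT 1, the pool with the most member UMIs, the same ratio lay between 482 and 952 for the 8 members other than Wfdc17, for which it was 11.5. For the same members it spread from 662 to 2722 in WT 2, from 1412 to 3581 in Lmna-KO 1 and from 859 to 4547 in Lmna-KO 2 (6 members, since Ear1 and Krt79 had no lymphoid UMI there), on lymphoid counts that were often under 10.

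In the mixed Retnla and C1qa cluster, 2 members rose, where 0.991% of the 8075 tested genes rose and 0.285% fell. Slc7a2 gave 3 and 3 UMIs in WT and 77 and 108 in the knockout, or 3.76, 3.94, 68.8 and 81.2 CPM. The log2 change was 4.2 ± 0.38 (SE, n = 2 and 2 libraries; adjusted p = 4.7e-04, edgeR). Slc7a2 passed the filter on low counts through the knockout libraries alone, where it was high, and its WT level rests on 3 UMIs a library. Its p-value therefore belongs to a gene that entered the test by the group where it was high. The knockout UMIs lay in 27.9% and 19.2% of the cells, against 3.57% and 4.44% in WT, and they were found in cells with a C1q UMI (71.8 and 110 CPM) and without one (67.0 and 68.7). The ratio of the pooled knockout to the pooled WT level was 19.6 (95% exact counting interval 8.85 to 54.2). That interval covers counting error only, not the spread between cells or libraries. The 3 cells richest in Slc7a2 held 41.6% of its UMIs in Lmna-KO 1 and 55.6% in Lmna-KO 2. Among the cells of Lmna-KO 2 with a C1q UMI, 3 cells held 90.9%. In WT, Slc7a2 was at 0 of 36 and 34 cells without a C1q UMI, which allows shares of up to 8.33% and 8.82%. Levels of other genes of the cluster were also apart between the genotypes. In cells with and without a C1q UMI, Mmp12, a macrophage elastase, stood at 138 and 4.23 CPM in WT 1, at 0 in both sets of WT 2, and at 327 to 587 in the knockout. Itgax, an integrin chain among the macrophage markers, stood at 72.5 to 98.7 CPM in WT and at 175 to 216 in the knockout. Whether the cluster holds the same kinds of cells in both genotypes was not tested. Plet1 stood at 37.6 and 39.4 CPM in WT and at 84.0 and 124 in the knockout (log2 change 1.4 ± 0.27, adjusted p = 0.037, edgeR), a call lost without WT 1 (adjusted p = 0.171) and without WT 2 (0.156).

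The macrophage change minus the change in that cluster was -4.41 for Slc7a2, -1.38 for Plet1 and 2.38 for Wfdc17 (adjusted p = 1.5e-05, 0.018 and 0.0011, edgeR). Of the 8542 tested genes, 1.1% had a lower and 0.339% a higher change in the macrophages. The Plet1 call was lost without Lmna-KO 2 (-0.98, adjusted p = 0.121), and Mrc1 (-1.05) and Marco (4.93) passed without WT 1 (adjusted p = 0.0085 and 1.1e-04). Chil3 in the cluster stood at 15.03 and 73.6 CPM in WT and at 377 and 2095 in the knockout, but 3 cells held 96.2% and 94.5% of the knockout UMIs, and the change did not pass (adjusted p = 0.380, edgeR). Mrc1 stood at 276, 133, 209 and 174 CPM in the 4 libraries, and Wfdc17 at 664, 414, 565 and 641, both with the genotypes overlapping. Ear2 stood at 190, 125, 105 and 168 CPM, also overlapping (adjusted p = 0.762, edgeR). Marco stood at 30.1 and 139 CPM in WT and at 0.894 and 13.5 in the knockout, from 24, 106, 1 and 18 UMIs in 3, 4, 1 and 3 cells, and its log2 change of -3.48 did not pass (adjusted p = 0.426, edgeR). No member passed in classical monocyte-like cells (4 tested), nonclassical monocyte-like cells (3) or neutrophil-like cells (3) by edgeR, and none had an unadjusted p under 0.05 there. In these classes 0.0816%, 0.198% and 0.331% of the tested genes rose and 0.408%, 0.525% and 0.192% fell.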

How the data were processed

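The authors deposited, per sample, a matrix of raw UMI counts per gene and cell from CD45.2+ lung cells sorted from 2 WT and 2 knockout mice and run on the Chromium 3′ v3 kit, per the labels' protocols. Cell Ranger 3.0.2, Seurat 3.0.0 and the mouse build mm10 are named in the submitters' processing notes; filters on barcodes and the handling of doublets are not given in the sources used here. Of the 31053 gene IDs in the matrices, 30934 are in GENCODE M21.

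A cell was kept if it had 200 genes or more and its mitochondrial UMIs made up 10% or less (15181 cells), and 461 were then dropped as likely doublets. Scanpy 1.11.5 clustered the rest into 24 clusters (2000 variable genes without the 9 members, 30 components, Leiden resolution 1). Clusters were named from marker lists that exclude the members, and where finer clusters carried another name their cells took it, a rule chosen after seeing the data. UMIs were summed per library and class and tested with edgeR 4.0.16 (quasi-likelihood, TMM scaling, filterByExpr, Benjamini-Hochberg adjustment over all tested genes, threshold 0.05), fitted to the 4 sums of a class. The standard error printed with a log2 change is its absolute value divided by the square root of the test's F statistic. It draws on variance estimates shared among genes and is not the plain spread between libraries. The script was tested on simulated data. Levels in CPM are sums scaled by the class's UMI total, and those called normalized carry the TMM scaling. Replicates are separate libraries; no source says more of their origin than the number of mice, so p-values measure the spread between these samples. The text names all members in the macrophage, lymphoid and whole-library comparisons, and up to 4 genes past the threshold, by smallest p, from each list. The genes nearest to Marco are not reported here. Members and lists were chosen with earlier results of these data known. Same-numbered libraries deviated together only weakly (r = 0.03 in macrophage sums and 0.12 in lymphoid sums), and the numbers were not taken as pairs. The alternatives were other scalings, DESeq2 1.42.0, other filters, a block, other cell sets and each library left out.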

Additional observations from a re-analysis of the deposited data

Results flagged for a closer look

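The change between the genotypes differed between cell sets, by a test of the difference itself, for the genes given here (Lmna-KO minus WT, log2 scale, edgeR's quasi-likelihood test adjusted over all tested genes). Chil3 changed by 0.01 in alveolar macrophage-like cells and by -1.64 in lymphoid cells, and Wfdc17 by 2.62 and -0.31. The lymphoid Chil3 was a trace, at 6.71 to 22.1 CPM, and whether lymphoid cells make it was not tested. The Wfdc17 change rests on knockout macrophage libraries that were far apart, at 286 and 626 CPM. Of these 4 changes, each fitted in its own cell set, only that of Chil3 in lymphoid cells passed by edgeR. In the joint fit of both cell sets, which is separate from those fits, the differences were 1.55 and 2.81. Both differences passed in all 5 alternative fits. Lmna, the targeted gene, differed by -1.65 between those cell sets and by -1.37 between the macrophages and the mixed Retnla and C1qa cluster. Slc7a2 differed by -4.41 between the macrophages and the mixed cluster, where the WT libraries gave 3 and 3 UMIs. Plet1 differed by -1.38 and Wfdc17 by 2.38 in the same comparison, which was added after the data were seen.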

How the results depend on the processing

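Depth and cell number set the limits: 34 and 52 knockout macrophages carry every macrophage comparison, and 5 members had too few lymphoid UMIs to be tested. In alveolar macrophage-like cells 1 member rose and 2 fell. The count that rose was 2 with DESeq2 and with every gene that had a count, and 0 with the tighter cell filter; the count that fell was 4 with every gene that had a count and 1 with the tighter cell filter. With each library left out in turn, 1 to 2 rose and 1 to 3 fell. In lymphoid cells 1 member fell; the count was 2 with every gene that had a count and with doublets kept, 0 with the tighter cell filter and with T cell precursors added, and 1 to 2 with each library left out. In all analysed cells 6 fell, with 1 to 7 as libraries were left out. Over the other classes 2 rises and 4 falls became 1 to 3 and 1 to 5 with a library left out. Between macrophages and the mixed cluster, 1 higher and 2 lower differences became 1 to 2 and 1 to 3. The log2 ratio of the share of lymphoid cells with a member UMI was -0.79 when cells were thinned to 6110 UMIs and -1.05 at 3055, and that of Chil3 alone was -0.62 and -1.48. The causes were not tested, beyond the smaller cell and gene sets these settings hold.

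Chil3 in macrophages turned sign to -0.054 with library totals only, -0.037 with every gene that had a count, -0.016 with the tighter filter and -0.024 with members among the variable genes. It was -0.27 in cells free of lymphoid and neutrophil marker UMIs, which were 81, 87, 27 and 5 cells in WT 1, WT 2, Lmna-KO 1 and Lmna-KO 2. As libraries were left out it ran from -0.14 to 0.14. Plet1 turned to -0.038, -0.021, -0.25 and -0.00077 under the first 4 of these, with -0.056 to 0.096 as libraries were left out. The macrophage minus lymphoid difference of Slc7a2 ran from -0.24 to 1.09 and the macrophage minus mixed cluster difference of Ear2 from -0.71 to 0.021 with a library left out. None of these passed a test.

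With the replicate number as a block, 1 member rose and 2 fell in macrophages, 1 fell in lymphoid cells, 7 fell in all analysed cells, and 3 rose and 4 fell over the other classes; the NK cell-like call of Chil3 was lost (adjusted p = 0.099) and Marco passed in all analysed cells (adjusted p = 0.026, edgeR). The numbers are shared labels, not known pairs.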
